A study of Mus musculus with 6 samples.

Results

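The genes described here are 9 carriers that move bile acids, bilirubin, drugs and phospholipid across the hepatocyte membrane. They were chosen by name, with no measured value in the rule, but with earlier results of these data known. Each was looked up among the 56884 genes of the deposited mouse count table. All 9 (Slc10a1, Slco1a1, Slco1b2, Slco2b1, Abcb11, Abcb4, Abcc2, Abcc3 and Slc51b) were found, and all 9 passed the filter (10 or more counts in total) that left 18018 genes for testing. RNA came from livers of male BALB/c (nu/nu) mice, which lack a thymus and therefore most T cells, aged 6 weeks, with cells of a human hepatocellular carcinoma (HCC) line implanted in that organ. AAV8, an adeno-associated virus that reaches hepatocytes, was given by tail vein 1 week later, and follow-up lasted another 3 weeks. The siControl group (genotype WT, treatment control AAV) received AAV8-siControl, and the siAATF group (genotype KD, treatment siAATF AAV) received AAV8-siAATF, with 3 libraries each. The siRNA was driven by the TBG promoter, which is active in hepatocytes. The labels do not say whether the 3 libraries of a group came from separate mice, so p-values measure the spread between these libraries, which may be technical.

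Hepatocytes are polarized. Their basolateral side faces the blood of the sinusoids and takes up bile acids and organic anions, and their canalicular side secretes bile. Bile acids circulate between liver and intestine, so uptake and canalicular export run in series, while carriers that return substrates to the blood are known to rise when canalicular flow is blocked. Slc10a1 (NTCP) takes up conjugated bile acids together with sodium. Slco1a1, Slco1b2 and Slco2b1 belong to the organic anion transporting polypeptides, which work without sodium. Abcb11 (the bile salt export pump), Abcb4 (which moves phosphatidylcholine into bile) and Abcc2 (which exports conjugated bilirubin) sit in the canalicular membrane. Abcc3 and Slc51b (the beta subunit of the organic solute transporter) export to the blood.

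The 250 bases of GRCm39 before the transcription start in GENCODE release M39 were read for each carrier and searched on both strands for published binding patterns, allowing 2 mismatches, and 2 of the patterns are described here. The HNF4 direct repeat (AGGTCA, any 1 base, AGGTCA) was present in 2 of 9 carriers, against 2.86% of 21667 protein-coding promoters. The inverted repeat of the bile acid receptor FXR (AGGTCA, any 1 base, TGACCT) was present in 1 of 9, against 1.18% of promoters. These 2 patterns share a half-site, and the matches found did not overlap. Neither pattern was matched in Abcc3 or Slc51b, nor in Slc10a1, Slco2b1, Abcb4 and Abcc2, which were called higher in siAATF. The sequences below are the 3 promoters with a match, and the promoter of Abcc3, the carrier whose level did not follow the others. They are written 5′ to 3′ on the strand of the gene, with the match in capitals.
Abcb11 (chr2:69173316-69173565, minus strand, HNF4 repeat at -101 to -89, 2 mismatches): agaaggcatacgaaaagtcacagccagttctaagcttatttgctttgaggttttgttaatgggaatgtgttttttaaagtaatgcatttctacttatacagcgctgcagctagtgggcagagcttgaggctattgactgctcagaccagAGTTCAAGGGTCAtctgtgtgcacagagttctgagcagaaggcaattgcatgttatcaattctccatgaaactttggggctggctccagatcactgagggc
Slco1a1 (chr6:141892691-141892940, minus strand, HNF4 repeat read on the opposite strand at -132 to -120, 1 mismatch): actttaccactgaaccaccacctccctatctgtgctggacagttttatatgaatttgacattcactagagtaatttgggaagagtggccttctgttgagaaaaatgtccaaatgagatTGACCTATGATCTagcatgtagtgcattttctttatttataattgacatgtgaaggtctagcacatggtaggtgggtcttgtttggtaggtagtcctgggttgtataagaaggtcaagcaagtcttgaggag
Slco1b2 (chr6:141574929-141575178, plus strand, FXR repeat at -23 to -11, 1 mismatch): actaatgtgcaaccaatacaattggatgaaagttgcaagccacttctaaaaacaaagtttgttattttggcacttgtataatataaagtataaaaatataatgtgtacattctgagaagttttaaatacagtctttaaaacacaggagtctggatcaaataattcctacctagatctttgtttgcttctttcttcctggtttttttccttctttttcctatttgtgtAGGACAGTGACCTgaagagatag
Abcc3 (chr11:94283803-94284052, minus strand, no match): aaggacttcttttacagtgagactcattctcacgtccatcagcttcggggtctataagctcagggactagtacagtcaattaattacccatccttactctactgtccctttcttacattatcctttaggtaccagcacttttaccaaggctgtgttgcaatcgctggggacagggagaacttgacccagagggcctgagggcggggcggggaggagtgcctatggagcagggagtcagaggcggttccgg
A match is a run of letters and not a measured binding site.

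The libraries of the groups differed in more than the treatment label. Human genes took 98.1 to 99.2% of all counts in siControl and 0.972 to 2.14% in siAATF, so mouse counts numbered 213022 to 913584 in siControl and 11835898 to 42563694 in siAATF. Which part of the liver each library was taken from, tumor or tissue beside it, is not given in the sources used here, so the treatment and the make-up of the sampled tissue cannot be told apart in any carrier difference below. The siRNA target Aatf itself had a log2 fold change of 0.93 (SE 0.47, adjusted p = 0.152 by edgeR), so its level was not shown to be lower in siAATF on this scale. It was -0.91 with library size alone (adjusted p = 0.176), and it was called lower, at -1.89 (adjusted p = 0.0472), with hepatocyte marker counts as the library size, a scale explained below on which 52.1% of genes were lower. Over all scales and settings run its adjusted p lay between 3.77e-10, where human and mouse counts together were the library size and it was called higher, as were 87.2% of all genes tested, and 0.521. Mitochondrial genes took 4.04 to 10.5% of mouse counts in siControl and 20.8 to 56.1% in siAATF, where replicate 2 was highest. Counts were normalized by TMM, a scaling that assumes most genes do not change, and compared by the quasi-likelihood test of edgeR. P-values were adjusted by Benjamini-Hochberg over all genes tested, and a gene was called where the adjusted p was under 0.05. TMM-normalized CPM are counts divided by the product of mouse total and TMM factor, then multiplied by a constant that is the same in every library. The TMM factors were 1.77 to 1.96 in siControl and 0.42 to 0.68 in siAATF, so this differs from scaling by the mouse total alone. A gene without a count can still reach 3 counts. That is 1.67 to 7.24 TMM-normalized CPM in the siControl libraries and 0.103 to 0.604 in the siAATF libraries. This limit, like the intervals of shares below, covers counting error only, since PCR copies are not independent molecules. In bulk tissue, fewer cells of a type and less RNA per cell cannot be told apart.

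Of the 9 carriers, 7 were called higher in siAATF and 0 lower, while 17.6% of all genes tested were called higher and 14.4% lower. The 7 were the 4 uptake carriers and the 3 canalicular exporters, and neither basolateral exporter was called. In the same 7 every siAATF library lay above every siControl library, which held for 34.5% of all genes. The median log2 fold change was 4.23 over the 8 carriers with a fold change and 0.50 over all genes tested. By the rule used in the study (unadjusted p under 0.05 and a change of 2 or more on the log2 scale), 7 were also called higher and 0 lower, against 13.6% and 13.1% of genes.

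**Figure D1:**
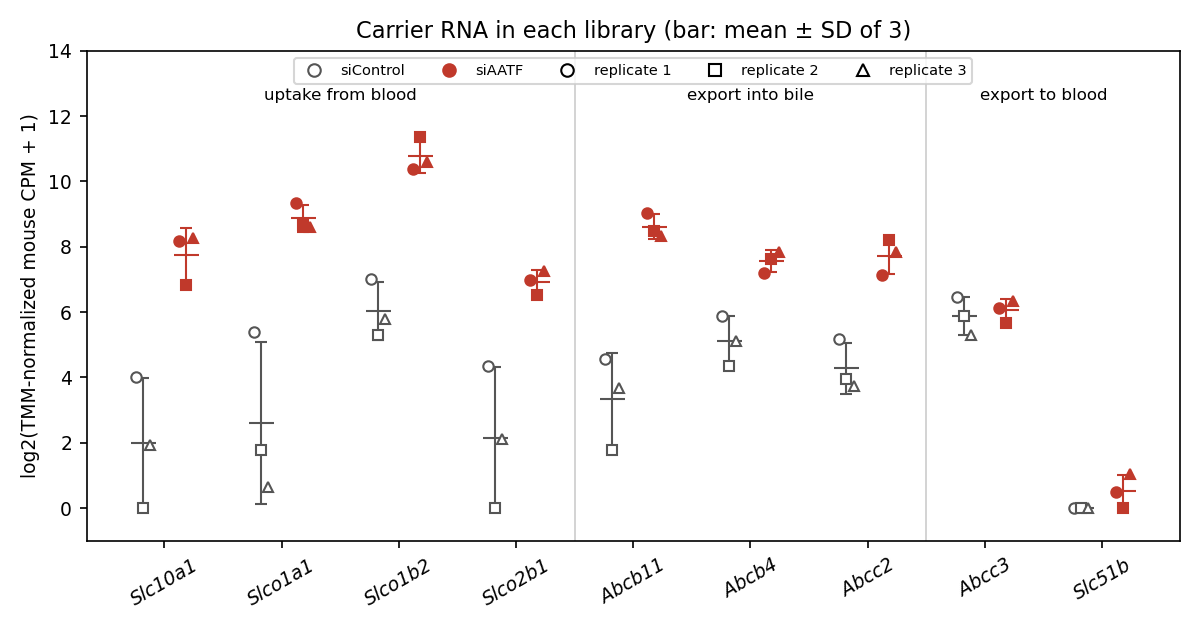
TMM-normalized mouse CPM of each carrier, as log2(CPM + 1), in siControl (open grey) and siAATF (filled red) libraries, with the replicate given by the symbol and the mean ± SD of 3 libraries as bars. The groups are apart for the 4 uptake carriers and the 3 canalicular exporters and overlap for Abcc3 and Slc51b.

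Among the uptake carriers, Slco1b2, which takes up bilirubin, bile acids and many drugs, had the highest level. Slco1b2 (ENSMUSG00000030236, chromosome 6 of GRCm39, 141575244 to 141632372) was counted 159, 16 and 98 times in siControl replicates 1 to 3, against 38656, 12917 and 28003 times in the siAATF replicates. Its normalized level was 128, 38.6 and 54.6 CPM in siControl and 1332, 2602 and 1552 CPM in siAATF. The lowest siAATF library was far above the highest siControl library, and siAATF replicate 2, the shallowest of its group, was the highest of all. The means were 73.6 ± 47.4 CPM (SD, n = 3) and 1829 ± 679 CPM, and the log2 fold change was 4.62 (SE 0.69, edgeR adjusted p = 0.000350). Without siControl replicate 1, which had the largest share of hepatocyte markers in its group, it was 5.26.

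Slc10a1 (ENSMUSG00000021135, chromosome 12, 80999957 to 81015479), the sodium-dependent bile acid carrier, was counted 19, 0 and 5 times in the siControl libraries, against 8297, 563 and 5597 times in the siAATF libraries. Its level was 15.2, 0 and 2.79 CPM in siControl and 286, 113 and 310 CPM in siAATF. No siControl library reached the lowest siAATF library, and in siControl only replicate 1 held more than a few reads. The log2 fold change was 5.11 (SE 0.79, edgeR adjusted p = 0.000430), and 6.80 without siControl replicate 1.

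Slco1a1 (ENSMUSG00000041698, chromosome 6, 141853008 to 141892688), an organic anion carrier that is higher in male than in female mouse liver, was counted 51, 1 and 1 times in the siControl libraries, against 18967, 2021 and 6999 times in the siAATF libraries. Its level was 40.9, 2.41 and 0.557 CPM in siControl and 654, 407 and 388 CPM in siAATF. Nearly all the siControl signal lay in replicate 1. The log2 fold change was 4.95 (SE 1.01, edgeR adjusted p = 0.00256), and without siControl replicate 1 it was 8.93, a value that rests on 2 control counts. Without siControl replicate 3 it was 4.32, and with every library thinned to the smallest mouse total 4.02.

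Slco2b1 (ENSMUSG00000030737, chromosome 7, 99307011 to 99360547), which carries steroid sulfates and is also used in other tissues, was counted 24, 0 and 6 times in the siControl libraries, against 3645, 449 and 2723 times in the siAATF libraries. Its level was 19.2, 0 and 3.34 CPM in siControl and 126, 90.5 and 151 CPM in siAATF, with no overlap. The log2 fold change was 3.84 (SE 0.71, edgeR adjusted p = 0.00131), and without siControl replicate 1 it was 5.60.

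Each of the 3 canalicular exporters was higher in siAATF, by different amounts. Abcb11 (ENSMUSG00000027048, chromosome 2, 69068626 to 69172960), the pump that sets the rate of bile acid secretion, was counted 28, 1 and 21 times in the siControl libraries, against 15255, 1762 and 5769 times in the siAATF libraries. Its level was 22.5, 2.41 and 11.7 CPM in siControl and 526, 355 and 320 CPM in siAATF, and the groups did not overlap. The means were 12.2 ± 10.03 and 400.1 ± 110 CPM (SD, n = 3), with a log2 fold change of 4.90 (SE 0.63, edgeR adjusted p = 0.000139), or 5.55 without siControl replicate 1.

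Abcc2 (ENSMUSG00000025194, chromosome 19, 43770631 to 43829179), the exporter of conjugated bilirubin and glutathione conjugates, was counted 44, 6 and 22 times in the siControl libraries, against 4031, 1464 and 4083 times in the siAATF libraries. Its level was 35.3, 14.5 and 12.3 CPM in siControl and 139, 295 and 226 CPM in siAATF. As for Slco1b2, siAATF replicate 2 was the highest library. The log2 fold change was 3.38 (SE 0.54, edgeR adjusted p = 0.000512), and 4.06 without siControl replicate 1.

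Abcb4 (ENSMUSG00000042476, chromosome 5, 8943717 to 9009226), the phospholipid exporter, was counted 72, 8 and 60 times in the siControl libraries, against 4207, 985 and 4130 times in the siAATF libraries. Its level was 57.7, 19.3 and 33.4 CPM in siControl and 145.0, 198 and 229 CPM in siAATF, without overlap. The log2 fold change was 2.33 (SE 0.47, edgeR adjusted p = 0.00231), the smallest of the 7 that were called. With library size alone in place of TMM it was 0.51 and was not called (edgeR adjusted p = 0.433), on a scale where 4.15% of genes were called higher and the median of all genes was -1.30.

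Of the basolateral exporters, Abcc3 did not follow and Slc51b had too few counts for a fold change. Abcc3 (ENSMUSG00000020865, chromosome 11, 94234121 to 94283802), which returns glucuronides and bile acids to the blood and is also found in bile duct and gut epithelium, was counted 108, 24 and 69 times in the siControl libraries, against 2016, 249 and 1445 times in the siAATF libraries. Its level was 86.6, 57.9 and 38.4 CPM in siControl and 69.5, 50.2 and 80.1 CPM in siAATF. The groups overlapped, with means of 61.0 ± 24.2 and 66.6 ± 15.2 CPM (SD, n = 3). The log2 fold change was 0.13 (SE 0.41, edgeR adjusted p = 0.838), and it lay between -0.15 and 0.49 when each library was left out in turn. With library size alone in place of TMM it was -1.64 and Abcc3 was called lower, as were 40.3% of genes on that scale.

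Slc51b (ENSMUSG00000053862, chromosome 9, 65319996 to 65330237) had no count in the 3 siControl libraries and 12, 0 and 19 counts in siAATF. The siAATF mean of 0.489 ± 0.530 CPM (SD, n = 3) lay under the siControl limits, so no fold change is given and a difference was not detectable at this depth. Its partner Slc51a, without which the beta subunit does not carry, had no count in siControl, against 10, 2 and 2 in siAATF and was not called. Slc51b also overlaps Rasl12 on the opposite strand, which was counted 3, 1 and 6 times in the siControl libraries, against 56, 1 and 4 times in the siAATF libraries. Whether the counting used the strand is not given in the sources used here, so reads of this pair may not be told apart. Genes overlapping Slco1a1, Slco2b1, Abcb11 and Abcb4 had at most 22 counts in any library.

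Levels of different genes can be compared per kilobase of the gene length given by the authors. In siAATF the TMM-normalized CPM per kilobase was 553 ± 205 for Slco1b2 (SD, n = 3), which ranked first in each library. Slco1a1 (119 ± 36.6), Slc10a1 (108 ± 48.8) and Abcb11 (77.8 ± 21.4) followed, and their ranges overlapped. Abcb4 (46.8 ± 10.4) lay below Abcb11 in every siAATF library. Abcc2 (27.4 ± 9.74) and Slco2b1 (23.0 ± 5.72) changed places between libraries, Abcc3 (13.3 ± 3.03) was the eighth in all 3 libraries, and Slc51b was last at 0.69 ± 0.75.

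The order in siControl was different for Abcc3. Slco1b2 was again first on average, at 22.2 ± 14.3 CPM per kilobase (SD, n = 3), and Abcc3 was next at 12.2 ± 4.84. In siControl replicate 2 both were nearly equal, at 11.7 for Slco1b2 and 11.6 for Abcc3. Abcb4 (9.03 ± 4.77) overlapped Abcc3. The other carriers with counts lay between 1.42 (Slco2b1) and 3.61 (Slco1a1) on average, within each other's spread.

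Shares within a library do not depend on how libraries are scaled against each other. Of the 9 carriers' reads per kilobase, the uptake carriers made up 59.5, 39.8 and 48.5% in siControl replicates 1 to 3, against 80.9, 85.3 and 81.8% in siAATF. The basolateral exporters, which means Abcc3 almost alone, made up 17.4, 37.5 and 20.1% in siControl and 1.63, 0.895 and 1.95% in siAATF. The canalicular exporters took 23.0, 22.7 and 31.4% and then 17.5, 13.8 and 16.3%. In each of these 3 measures the groups did not overlap, and the exact two-sided permutation test gave p = 0.1, the smallest that 3 libraries against 3 allow. With Benjamini-Hochberg adjustment over these 3 comparisons the p-values are unchanged, and the design cannot pass 0.05.

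**Figure D2:**
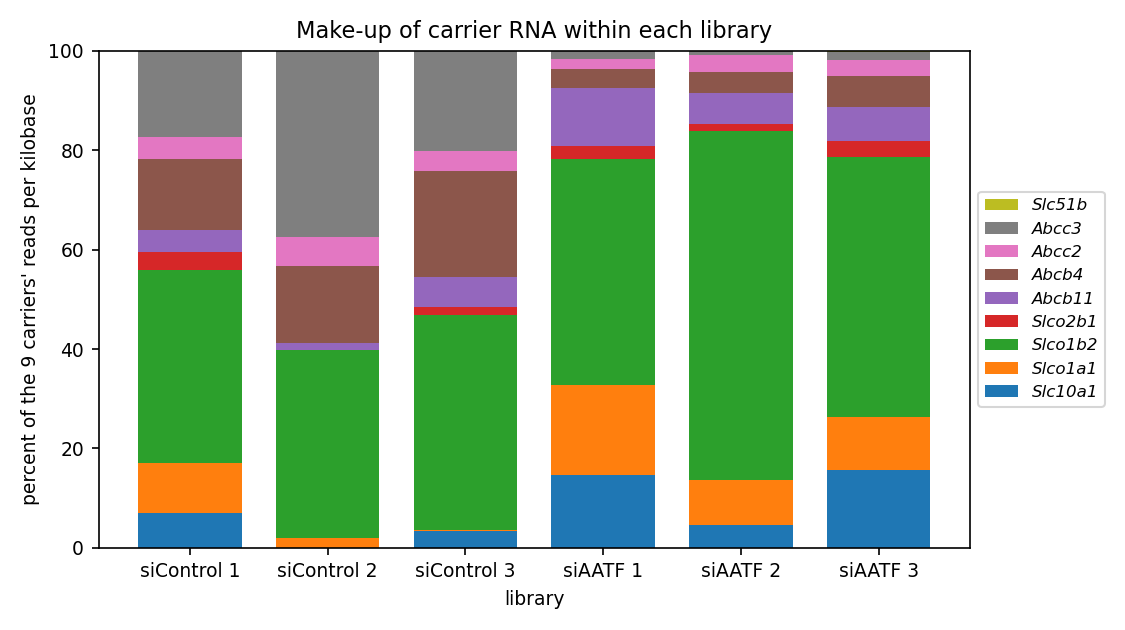
Percent of the 9 carriers' reads per kilobase taken by each carrier, in each of the 6 libraries. Abcc3 (grey, at the top) takes 17.4 to 37.5% in siControl and 0.895 to 1.78% in siAATF, and Slco1b2 (green) is the largest part in every library, narrowly so in siControl replicate 2.

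Abcc3 and Abcb11, the basolateral and the canalicular route out of the hepatocyte, were also set against each other by their counts alone. Abcc3 made up 79.4% of their joint counts in siControl replicate 1 (95% Wilson interval 71.9 to 85.4%), 96.0% in replicate 2 (80.5 to 99.3%) and 76.7% in replicate 3 (66.9 to 84.2%). In siAATF it made up 11.7% (11.2 to 12.2%), 12.4% (11.01 to 13.9%) and 20.0% (19.1 to 21.0%). These intervals cover counting error only. The shares of the groups did not overlap, with means of 84.0 ± 10.5% and 14.7 ± 4.63% (SD, n = 3, exact permutation p = 0.1). Abcb4 made up 72.0, 88.9 and 74.1% of the joint counts of Abcb4 and Abcb11 in siControl and 21.6, 35.9 and 41.7% in siAATF, also without overlap (exact permutation p = 0.1). Of Abcc3 and Abcc2, which belong to the same transporter family, Abcc3 took 71.1, 80.0 and 75.8% in siControl and 33.3, 14.5 and 26.1% in siAATF (exact permutation p = 0.1).

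The summed level of the 9 carriers, as CPM of all mouse counts per kilobase, was 176, 60.0 and 75.1 in siControl and 605, 470 and 464 in siAATF. The ratio of the means was 4.94, the groups did not overlap and the exact permutation p was 0.1. Without siControl replicate 1 the ratio was 7.59. The ratio depended on the scale. It was 17.2 with TMM-normalized library sizes and 296 with human and mouse counts together as the library size. It was 2.69 with hepatocyte marker counts as the library size (exact permutation p = 0.2), a scale on which siAATF replicate 3 lay within the range of the siControl libraries.

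The libraries also differed in how much hepatocyte RNA they held. Of 18 hepatocyte markers (Alb, Trf, Ttr, Apoa1, Fga and others), 16 were called higher and 0 lower, against 10 higher without siControl replicate 2 and 9 without siControl replicate 3. The median log2 fold change was 3.87, with a log2 fold change of 4.23 for Alb, which was not called without either of those libraries (4.01 and 4.03, edgeR adjusted p = 0.0543 and 0.0828). Their summed level was 12581 to 28607 TMM-normalized CPM in the control libraries, against 76589 to 298435, and no marker was at 0 in any library. The carriers were therefore also fitted with the summed counts of these markers as the library size, which asks for the difference beyond that of the markers. On this scale the median log2 fold change of all genes was -2.46, 1.32% of genes were called higher and 52.1% lower. The scale is a coarse one, since the markers themselves ran from -1.56 (Trf) to 3.22 (Apoa2) on it and 5 of the 18 were called higher.

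On the hepatocyte marker scale 4 of the 9 carriers were called higher, 1 lower, and 4 were not called. Slco1a1 (log2 fold change 2.57, SE 0.78, edgeR adjusted p = 0.00313), Slc10a1 (2.28, SE 0.82, adjusted p = 0.0127), Abcb11 (2.19, SE 0.78, adjusted p = 0.0113) and Slco1b2 (2.04, SE 0.73, adjusted p = 0.0119) stayed higher. Slco2b1 (1.18, SE 0.80, edgeR adjusted p = 0.211), Abcc2 (0.75, SE 0.75, adjusted p = 0.415) and Abcb4 (-0.50, SE 0.73, adjusted p = 0.586) were not called. Abcc3 was lower, at -2.90 (SE 0.78, edgeR adjusted p = 0.000703). Over all alternatives tried, the adjusted p ran from 1.06e-20 to 0.111 for Slc10a1, from 2.34e-20 to 0.106 for Slco1a1, from 7.06e-17 to 0.287 for Slco1b2, from 1.84e-18 to 0.104 for Abcb11 and from 3.87e-08 to 0.987 for Abcc3. Leaving out 1 library at a time gave between 0 (without siControl replicate 3) and 4 higher calls, with 1 without siControl replicate 2 and 2 without siAATF replicate 1. Of all genes, 104 of 17749 were called higher without siControl replicate 3, 145 of 17956 without siControl replicate 2 and 149 of 16290 without siAATF replicate 1. With all libraries it was 237 of 18018, and without siAATF replicate 3 it was 355 of 16950. Most carrier calls were lost with little change in size: without siControl replicate 3 the log2 fold changes were 2.08 for Slc10a1, 2.01 for Slco1a1, 2.08 for Slco1b2 and 2.47 for Abcb11. Without siControl replicate 1 they were 5.57 for Slco1a1, which then rests on 2 control counts, and 3.31 for Slc10a1. Abcc3 was called lower without any 1 of the 6 libraries, at -3.22 to -2.61, but the median of all genes in those fits was -3.12 to -2.09. Against that median Abcc3 was -0.37 on the TMM scale and -0.44 on the marker scale, and whether it differed from the typical gene was not tested.

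**Figure D3:**
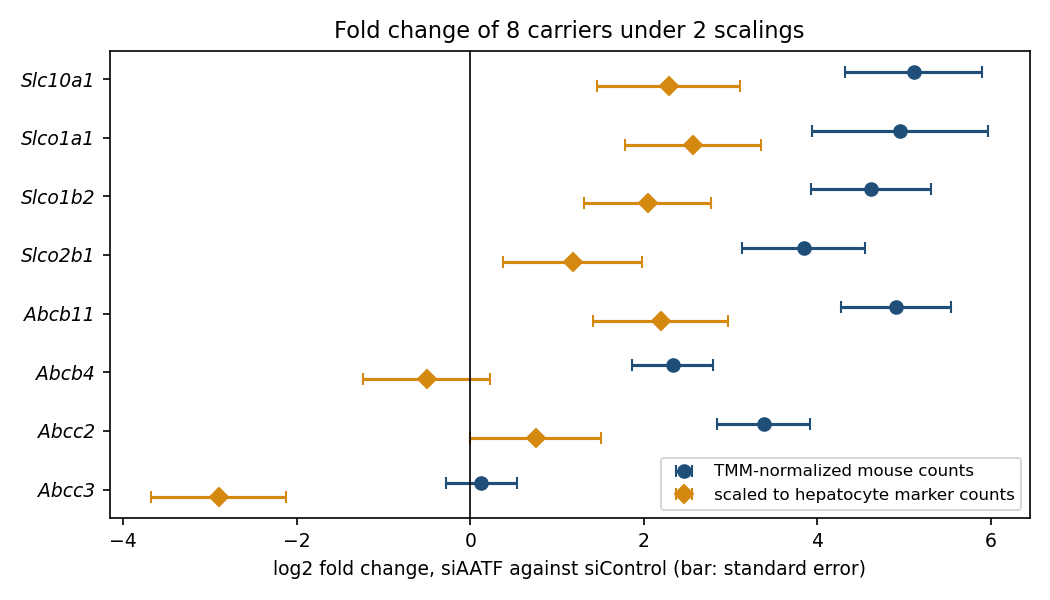
Log2 fold change of siAATF against siControl for the 8 carriers with a fold change, with the standard error as a bar, after TMM normalization (blue circles) and with hepatocyte marker counts as the library size (orange diamonds). The marker scale moves the median of all genes from 0.50 to -2.46 and so shifts each carrier to the left, with Abcc3 at 0.13 on the TMM scale and at -2.90 on the marker scale.

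The values behind this fit are counts per 1000 hepatocyte marker counts. Abcc3 had 3.03, 4.60 and 2.88 in siControl and 0.472, 0.655 and 0.268 in siAATF, all below the controls, as were 49.8% of all genes tested. Slc10a1 had 0.533, 0 and 0.208 in siControl and 1.94, 1.48 and 1.04 in siAATF, all above, as were 11.4% of genes. Abcb11 had 0.785, 0.192 and 0.875 and then 3.57, 4.63 and 1.07, also all above. Slco1b2 had 4.46, 3.07 and 4.09 in siControl and 9.06, 34.0 and 5.20 in siAATF, where replicate 2 stood apart. Without that library its log2 fold change on this scale was 0.87 and was not called (edgeR adjusted p = 0.287). Slco1a1 overlapped between the groups here, because siControl replicate 1 (1.43) lay above siAATF replicate 3 (1.30). Abcb4, at 2.02, 1.53 and 2.50 in siControl and 0.986, 2.59 and 0.767 in siAATF, and Abcc2, at 1.23, 1.151 and 0.917 and then 0.944, 3.85 and 0.758, also overlapped.

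**Figure D4:**
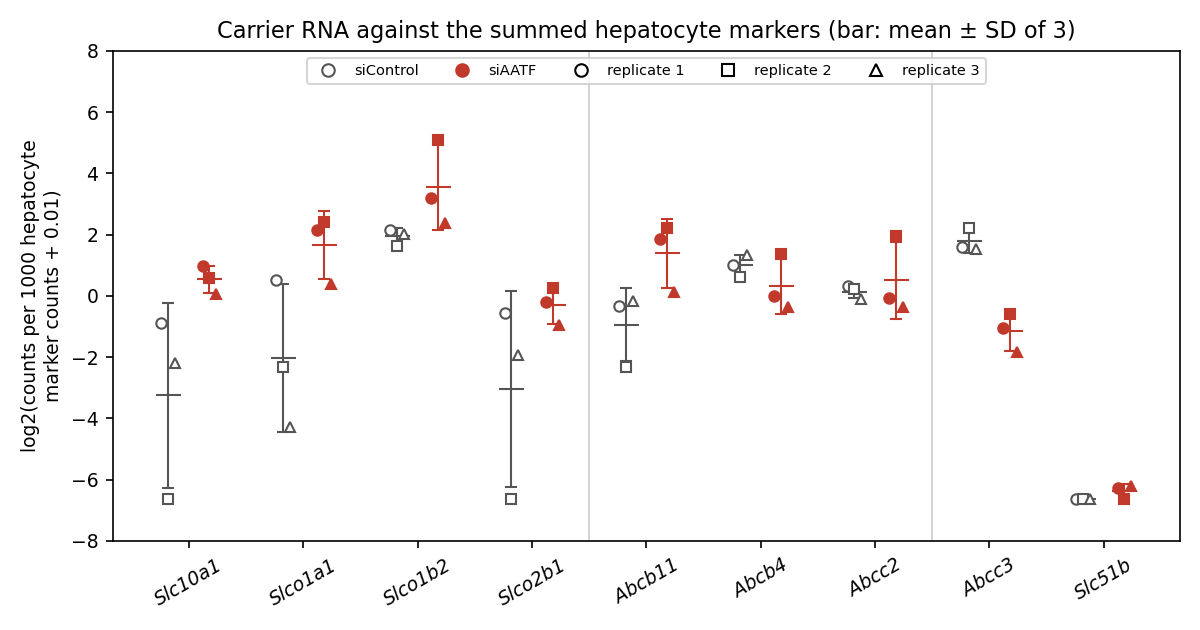
Counts of each carrier per 1000 hepatocyte marker counts, as log2(value + 0.01), with symbols, groups and bars as in the plot of carrier levels. Slc10a1, Slco1b2 and Abcb11 lie above the controls in each siAATF library, Abcc3 lies below them, and the points at the bottom are libraries with 0 counts.

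Markers of other cells that can carry Abcc3 or other members were read as whole lists. Of 8 cholangiocyte markers 6 were tested, with 1 called higher, 2 lower and 3 not called. The higher call was lost without siControl replicate 2 or 3 and with RLE or upper-quartile factors, and 1 marker was called lower without siControl replicate 1 or 3. Their summed level was 1146 to 2319 CPM in the control libraries, against 92.8 to 98.5 CPM, and was mostly Spp1, which is not particular to bile ducts. In siControl replicates 1 to 3 the bile duct keratins had few counts, with 7, 0 and 2 for Krt19 and 5, 0 and 5 for Krt7, while Epcam had 14, 1 and 11 and Cftr none. Of 6 enterocyte markers 3 were tested and 1, Fabp2, was called higher, while the other 2 were not called. With DESeq2, limma-voom or upper-quartile factors, and without siControl replicate 3 or siAATF replicate 2, 1 of these was called lower. With library size alone both were, as were 40.3% of all genes. Of 6 kidney tubule markers 1 was tested and 0 were called. In the same siControl libraries Abcc3 had 108, 24 and 69 counts, and the part of other epithelial cells in its level was not tested.

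Most markers of fibroblasts, leukocytes and tumor endothelium moved the other way from the 7 carriers. Of 9 fibroblast markers 8 were lower, 0 higher, with a summed level of 8693 to 12744 CPM in the control libraries, against 342 to 534 CPM. All 6 leukocyte markers and 6 of 8 tumor endothelial markers were lower, and 3 of 8 macrophage markers were lower and 1 higher. The higher macrophage count was 0 to 3 when 1 library was left out, with 0 without siControl replicate 3, 2 without siControl replicate 1 or siAATF replicate 3 and 3 without siAATF replicate 2. Of 6 sinusoidal endothelial markers 2 were higher and 2 lower, but 0 were higher without siControl replicate 2 or 3, and 1 without siAATF replicate 1 and with limma-voom. With human and mouse counts together as the library size, 3 fibroblast markers were lower and 1 higher, 2 tumor endothelial markers lower and 3 higher, 1 leukocyte marker lower and 0 higher, and 5 macrophage markers higher and 0 lower. On that scale the median of all genes was 4.66, with 87.2% called higher and 0.66% lower. The part of these differences in cell make-up in the carriers' values was not tested.

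Other genes of the same pathway were read from lists. Of 26 other hepatic transporters 25 were tested, with 16 called higher, 5 lower and 4 not called, and a median log2 fold change of 2.82, beside 17.6% of all genes higher and 14.4% lower. With library size alone 8 were higher and 7 lower, where 4.15% of all genes were higher and 40.3% lower. Slc10a5, a relative of Slc10a1, had no count in siControl, against 1074, 417 and 472 in siAATF, at least 13.0-fold higher against the limit of 3 counts per library. Slco1a4, a close relative of Slco1a1, had no count in siControl, against 731, 68 and 359 in siAATF, at least 5.19-fold higher. Slc22a7, an organic anion carrier of the basolateral membrane, had 1, 0 and 0 counts in the controls, then 6871, 818 and 965. The 2 largest falls were Abcc1 (log2 fold change -4.16, SE 0.57, edgeR adjusted p = 0.000199) and Abcc4 (-2.96, SE 0.68, adjusted p = 0.00538), both exporters related to Abcc3 and used by many cell types, with values of 0.071 and 1.23 where human and mouse counts together were the library size and the median of all genes was 4.66. On the hepatocyte marker scale 5 of the 25 were called higher and 8 lower, beside 1.32% and 52.1% of all genes, shares that also stand behind the other list counts on that scale.

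Bile acid synthesis genes were mostly higher, with 14 of 16 tested called higher, 0 lower and 2 not called, and a median of 3.61. Of all genes tested 17.6% were higher and 14.4% lower, shares that also stand behind the other list counts on the TMM scale. Cyp7a1, the rate-limiting enzyme, was counted 11, 0 and 0 times in the siControl libraries, against 3634, 1559 and 1251 times in the siAATF libraries (log2 fold change 5.68, SE 1.00, edgeR adjusted p = 0.000976). All its control counts lay in siControl replicate 1, so the size of this fold rests on that library. Cyp8b1, which directs synthesis to cholic acid, was at 7.01 (SE 0.89, edgeR adjusted p = 0.000126), and Akr1d1, which reduces the steroid ring, had 2, 0 and 0 and then 4121, 560 and 2117 counts. On the hepatocyte marker scale 4 of these 16 were called higher and 2 lower.

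Among 22 regulators of these carriers, 17 were called higher, 2 lower and 3 not called, with a median of 2.82. Nr1h4, the bile acid receptor FXR that drives Abcb11, was at 2.92 (SE 0.58, edgeR adjusted p = 0.00215). Its target Nr0b2, a repressor of Cyp7a1 and Slc10a1, was at 3.40 (SE 0.53, adjusted p = 0.000463), and Hnf4a at 3.27 (SE 0.57, adjusted p = 0.000895). Among the alternatives tried, the call of Nr1h4 was lost in 3, at 0.23 to 1.11. It was lost in 2 for Nr0b2, at 0.53 and 0.77, and in 2 for Hnf4a, at 0.46 and 0.63. The largest rises were Ppara (5.14) and Onecut1 (4.96), besides Nr1i3, with 0, 0 and 1 counts in the controls, against 270, 36 and 218. Nfe2l2, which is known to raise Abcc3 under oxidative stress, was lower (-1.25, SE 0.38, edgeR adjusted p = 0.0251), but was 2.92 on the joint human and mouse scale, where the median of all genes was 4.66. The call was lost without siControl replicate 1 (-0.95, edgeR adjusted p = 0.117), without siControl replicate 3 (-1.31, adjusted p = 0.0783) and without siAATF replicate 1 (-1.16, adjusted p = 0.0525), and 0 regulators were called lower in any of these fits. With library size alone 7 regulators were higher and 2 lower, beside 4.15% and 40.3% of all genes. On the hepatocyte marker scale 2 regulators were called higher and 3 lower, beside 1.32% and 52.1% of all genes.

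The canalicular apparatus, the junction, scaffold and membrane proteins that shape the canaliculus, had 10 of 19 called higher, 1 lower and 8 not called, and a median of 1.82. Without siControl replicate 3 the count was 6 higher. With library size alone it was 4 higher and 6 lower, beside 4.15% of all genes higher and 40.3% lower. Ceacam1, a canalicular membrane protein, was at 4.19 (SE 0.48, edgeR adjusted p = 7.52e-05), and the claudins Cldn1 and Cldn3 at 3.60 and 3.37. Msn, an ERM protein abundant in leukocytes and endothelium, was lower, at -4.11 (SE 0.52, adjusted p = 0.000129), except that it was 0.19 with human and mouse counts together as the library size, again beside an all-gene median of 4.66. On the hepatocyte marker scale 0 of the 19 were called higher and 7 lower (edgeR, adjusted p under 0.05), beside 52.1% of all genes lower.

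Because Slco1a1 is a male-predominant gene, genes with a known sex difference in mouse liver were read as well. Of 12 male-predominant genes 11 were called higher, 0 lower and 1 was not called, with a median of 4.55, against 4.95 for Slco1a1. On the hepatocyte marker scale 6 of the 12 were called higher and 0 lower, with a median of 1.93. Of 14 female-predominant genes 5 had enough counts to be tested and 0 were called. Their median was 4.38, a fitted value that rests on 0 to 5 control counts summed over the list in each library. With so few, these 5 could pass the filter only through their siAATF counts, which favours a high value. A difference between the lists was not tested.

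Among the 5 genes whose pattern over the 6 libraries was most like the mean pattern of the 9 carriers were the enzymes Sdsl, Ldhd, Gpd1 and Agxt2. Likeness was the Euclidean distance between profiles of log2(CPM + 1), each centred on its mean over the libraries, among 9458 other genes with a mean of at least 50 counts. Their distances were 0.42 for Sdsl, 0.49 for Ldhd, 0.51 for Gpd1 and 0.51 for Agxt2.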

How the data were processed

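The authors trimmed the reads, aligned them with STAR 2.7.11 to the joined human and mouse (GRCm39) genomes, left out multi-mapped reads and reads fitting both species, and counted the others on GENCODE genes with featureCounts 2.0.1. They deposited raw counts per gene, neither normalized nor filtered, with gene positions and lengths. All 6 count columns matched the labels. Of 56884 mouse identifiers, 56323 were named from GENCODE release M39, and 1 of the 9 carriers had the same start and end there. Coordinates of genes are those of the deposited table.

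Counts were fitted with edgeR 4.0.16 (R 4.3.3) after TMM normalization, with the group as the only term and the 18018 genes whose counts summed to 10 or more. SEs were derived from the F statistic. The test was checked on simulated counts that took the TMM library sizes as true and changed few genes, so the scaling itself was not checked. Single values were compared by exact permutation. Of each pathway list the 3 largest called rises and 2 largest called falls with a mean of at least 10 counts were named, and Slc51a, Slco1a4, Cyp7a1, Nr1h4, Nr0b2, Hnf4a, Alb and Aatf always, and some results that the rules select are not reported here. The carriers, lists and tests were chosen with earlier results of these data known. Alternatives included DESeq2 1.42.0, which the authors used, limma-voom (limma 3.58.1), other scalings and filters, and leaving out each library.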

Additional observations from a re-analysis of the deposited data

How the results depend on the processing

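The count of 7 carriers called higher and 0 lower was the same with DESeq2, RLE and upper-quartile factors, limma-voom, filterByExpr, no filter, thinned counts, no mitochondrial genes and without any 1 library. The number of the replicate did not pair libraries (correlations of same-numbered deviations 0.145, 0.212 and -0.023), and with a replicate block 7 were higher and 0 lower. Human plus mouse counts as library size gave 9 higher, on a scale with an all-gene median of 4.66 and 15711 of 18018 genes called higher. Requiring at least 10 counts in every library left 2 carriers to test and 1 called higher. Library size alone gave 6 higher, without Abcb4 (0.51), and 1 lower, moved the median of all genes from 0.50 to -1.30 and made 9.33% of all calls higher, against 55.0%. The log2 fold changes of the 6 were then 3.42 for Slc10a1, 3.28 for Slco1a1, 3.18 for Abcb11, 2.76 for Slco1b2, 2.11 for Slco2b1 and 1.52 for Abcc2. Hepatocyte marker counts as library size gave 4 higher and 1 lower, the same numbers without Alb, and 0 to 4 higher with 1 lower when 1 library was also left out. The scale without Alb, the marker scale with a library left out and the fits without mitochondrial genes were chosen after seeing the data.

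The direction reversed as follows. Abcc3 was -0.17 with upper-quartile factors, -1.64 with library size alone, -2.90 and -2.70 on the marker scale with and without Alb, -2.99, -2.67 and -3.02 there without siControl replicates 1 to 3, -2.91, -3.22 and -2.61 without siAATF replicates 1 to 3, and -0.50 in thinned counts. With 1 library left out on the TMM scale Abcc3 lay between -0.15 and 0.49. It was 4.40, and called, per human and mouse counts. Abcb4 was -0.50 and -0.33 on the marker scales and -0.51, -0.64 and -0.31 without siControl replicates 1 to 3 and -0.28, -1.23 and -0.20 without siAATF replicates 1 to 3. Abcc2 (-0.37) reversed on the marker scale without siAATF replicate 2. Aatf was -0.91 with library size alone and -1.89 (called lower, edgeR adjusted p = 0.0472) and -1.71 (not called) on the marker scales. Per human and mouse counts, Abcc1 was 0.071, Abcc4 1.23, Msn 0.19 and Nfe2l2 2.92. The ratio of summed carrier levels, 4.94, was 296 per human and mouse counts, 2.69 per marker counts, 17.2 with TMM, 7.45 without mitochondrial genes and 4.08 to 7.59 with 1 library left out. The cause of these shifts was not tested. Few control counts limit the precision, since 7 carriers had at most 8 counts in siControl replicate 2.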

Other observations

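These values were singled out after they were seen. Slc10a2, the sodium-dependent bile acid carrier of ileum and bile ducts, was counted 12, 1 and 2 times in siControl, against 882, 285 and 1495 times in siAATF, with a log2 fold change of 3.65 (SE 0.67, edgeR adjusted p = 0.00123), and was not called on the hepatocyte marker scale (0.94). In the siAATF libraries the bile duct marker Krt19 had 72, 12 and 87 counts and Cftr 0, 1 and 1. A few sex-dependent genes differed between the siAATF libraries. The male-predominant Hsd3b5 was at 416, 155 and 7.26 TMM-normalized CPM in siAATF replicates 1 to 3, the female-predominant Cyp3a44 at 0.448, 0 and 19.5 CPM and A1bg at 0.138, 0 and 7.37 CPM. The whole male-predominant list, summed over its 12 genes, did not follow Hsd3b5, at 12340, 4437 and 5442 CPM, with replicate 3 above replicate 2.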
